A study of Mus musculus with 15 samples.

Results

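The 10 genes described here encode the core machinery that fuses and divides mitochondria. They were chosen by name (Mfn1, Mfn2, Opa1, Dnm1l, Fis1, Mff, Mief1, Mief2, Oma1 and Yme1l1) among the 25700 gene identifiers counted in 3T3-L1 cells. All 10 members passed the filter on low counts that left 12279 genes for testing, and their counts ran from 63 to 4691 reads per library.

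Mitochondria form a network that is reshaped by fusion and fission. Mitofusins, GTPases of the outer membrane, join outer membranes, and OPA1, a GTPase of the inner membrane, joins inner membranes and holds cristae in shape. The peptidases OMA1 and YME1L1 cut long OPA1 into short forms, OMA1 mainly under stress. Fission is carried out by DRP1, the dynamin-like GTPase encoded by Dnm1l, which is recruited from the cytosol by the outer-membrane proteins MFF, FIS1 and the MiD proteins encoded by Mief1 and Mief2. MIGA2, mitoguardin 2, is an outer-membrane protein known to promote mitochondrial fusion and to tether mitochondria to the endoplasmic reticulum and to lipid droplets. In fat cells the network is remodelled while lipid droplets form.

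RNA was sequenced from 3T3-L1 cells, a mouse preadipocyte line, in 15 libraries of 5 groups with 3 replicates each. The groups were day 6 cells labelled as overexpressing MIGA2-GFP (MIGA2-GFP), MIGA2 depleted cells (MIGA2-KO) at day 6 and day 0, and wild-type cells (WT) at day 6 and day 0. Day 0 was the addition of dexamethasone, IBMX and insulin to confluent cultures, and all day 6 groups had received this medium, then insulin alone, then plain serum medium. No MIGA2-GFP library of day 0 was analysed here. The sources used here do not state how the MIGA2-KO and MIGA2-GFP lines were made, what drives the transgene or whether a line is 1 clone. Nothing in the labels says that replicates were separate cultures, so the tests weigh differences only against the spread among libraries within groups, which may be technical. That spread was estimated over all 5 groups together, although the WT groups spread more widely than the others for several members. Whether groups overlapped is given as a description of single genes, and the share of all genes without overlap was not computed. In a bulk library, fewer cells of a type and less RNA per cell cannot be told apart.

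The libraries held 10748668 to 26003871 counts. Miga2, the targeted gene, was at 166, 155 and 158.5 CPM (read counts scaled to library size, with TMM factors) in libraries labelled MIGA2-GFP day 6 and at 145, 159.5 and 182 CPM in WT day 6. These groups overlapped (log2 fold change -0.02, edgeR adjusted p = 0.985), so the counts show no excess of Miga2 in the libraries labelled as overexpressing it. It was at 926, 74.5 and 70.02 CPM in libraries labelled MIGA2-KO day 6, so that the library labelled MIGA2-KO day 6 replicate 1 goes against its label and the other two are below WT. At day 0 it was at 17.2, 21.4 and 22.6 CPM in libraries labelled MIGA2-KO and at 15.6, 17.8 and 13.6 CPM in WT, so gene-level counts show no depletion there. Counts per gene do not show whether a changed allele or the transgene gave these reads. All 8 fat-cell markers listed were counted in every day 6 library. Their summed level was 18270 to 19920 CPM in MIGA2-GFP day 6, 5878 to 9289 CPM in MIGA2-KO day 6 and 26360 to 38580 CPM in WT day 6, against 52.9 to 54.5 CPM in MIGA2-KO day 0 and 51.2 to 72 CPM in WT day 0. Of the 7 preadipocyte and fibroblast markers, all had counts in every library, with sums of 5852 to 6161 CPM in MIGA2-GFP day 6, 10890 to 18680 CPM in MIGA2-KO day 6 and 5316 to 5776 CPM in WT day 6. At day 0 their sums were 14280 to 15860 CPM in MIGA2-KO and 16200 to 20870 CPM in WT, so the MIGA2-KO ranges of both days overlapped. Among markers of other cell types, Ptprc (blood cells), Myod1 (muscle) and Epcam and Cdh1 (epithelium) were at 0 in all 15 libraries. The 5 macrophage markers summed to 11.5 to 12.6 CPM in MIGA2-GFP day 6, 17.1 to 22.6 CPM in MIGA2-KO day 6 and 9.61 to 15.7 CPM in WT day 6. They were higher at day 0, at 77 to 79.8 CPM in MIGA2-KO and 71.1 to 102.5 CPM in WT. The 5 muscle markers summed to 0.435 to 38.8 CPM in MIGA2-KO day 6, against 1.09 to 1.36 CPM in WT day 6. Of these 5, 1 was tested and was higher in MIGA2-KO than in WT at day 6 (log2 fold change 2.69, edgeR adjusted p under 0.05). It stayed higher at 3.17 without replicate 1 of MIGA2-KO day 6, WT day 6 and WT day 0. Epithelial markers summed to at most 9.94 CPM and endothelial markers to at most 1.22 CPM in any library.

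The WT libraries differed among themselves in a way that touches several members. Across 12261 genes, the deviation of a WT library from its group mean was correlated with exonic length at -0.538, 0.388 and 0.475 in replicates 1 to 3 of day 0 and at 0.439, -0.284 and -0.295 in those of day 6. In the MIGA2-KO and MIGA2-GFP libraries this correlation lay between -0.095 and 0.085. Correlations with GC content ran from -0.603 to 0.456 in WT and from -0.133 to 0.119 in the other libraries. Fis1, with the shortest exonic length among the members (1714 bases), deviated by up to 0.68 log2 units in WT and by up to 0.08 in the other groups. Dnm1l deviated by up to 0.49 in WT and up to 0.04 elsewhere. Yme1l1 deviated by up to 0.31 in WT and 0.07 elsewhere, and Opa1 by up to 0.38 in WT and 0.10 elsewhere. Fis1 lay on the opposite side of the group mean from Dnm1l in every WT library. Results were therefore recomputed with each library's trend over GC content and length removed. This correction also removes any true difference between groups that follows GC content or length. Results were also recomputed without 3 libraries that stood apart, replicate 1 of MIGA2-KO day 6, WT day 6 and WT day 0. Replicate 1 differed from replicates 2 and 3 of its group by a chi-square per degree of freedom of at least 34.2. Replicates 2 and 3 differed from each other by at most 20.57. The WT libraries kept had length correlations of 0.388 and 0.475 at day 0 and of -0.284 and -0.295 at day 6. In that setting the length trend therefore runs with day in WT, and its part in those values was not tested.

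**Figure D1:**
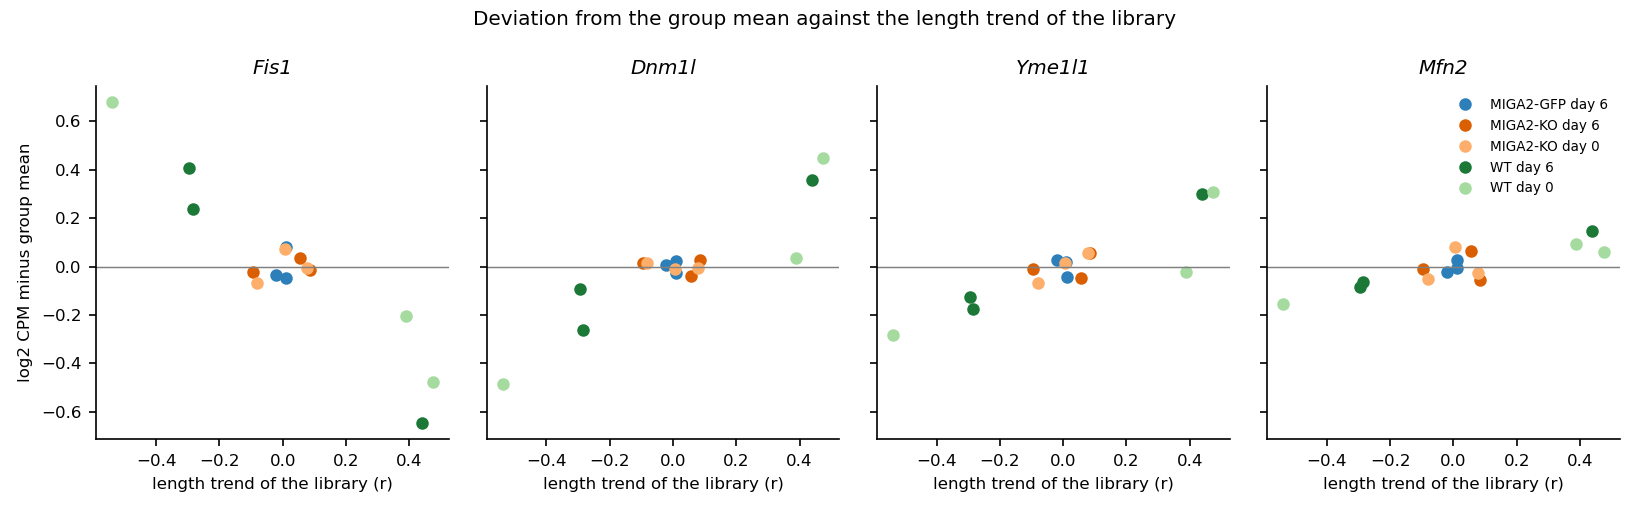
Deviation of each library from its group mean (log2 CPM, vertical axis) against the correlation of that library's deviations with exonic length over all genes (r, horizontal axis), for 4 members and with 1 point per library coloured by group. The WT libraries spread to both ends of the horizontal axis, where Fis1 falls along the axis and deviates by up to 0.68, Dnm1l and Yme1l1 rise along it, and Mfn2 deviates by at most 0.16, as the MIGA2-KO and MIGA2-GFP libraries do in all 4 panels.

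The levels of the members differed widely when compared per kilobase of exons. Fis1 was the highest in all 5 groups, at 71.5 ± 3.58 CPM per kilobase in MIGA2-GFP day 6, 59.8 ± 1.32 in MIGA2-KO day 6 and 113.5 ± 39.3 in WT day 6, against 68.4 ± 3.39 in MIGA2-KO day 0 and 85.6 ± 38.1 in WT day 0 (mean ± SD, n = 3 each, as for all such values). Mfn2 had the next highest mean in all 5 groups, at 27.3 ± 0.51 CPM per kilobase in MIGA2-GFP day 6, 20.3 ± 0.88 in MIGA2-KO day 6 and 23.4 ± 2.14 in WT day 6. At day 0 its mean was 14.9 ± 0.73 in MIGA2-KO and 13.3 ± 1.22 in WT, against 14.4 ± 0.13 for Dnm1l in MIGA2-KO and 12.1 ± 3.83 in WT, and the libraries of these genes overlapped in both lines. Below these the order depended on the group. In WT day 6 the next were Oma1 at 14.3 ± 0.77, Mief2 at 11.3 ± 2.17, Dnm1l at 10.5 ± 2.41 and Yme1l1 at 8.81 ± 1.67 CPM per kilobase. Mief2, Dnm1l and Yme1l1 lay within 1 SD of their neighbour in that order. In MIGA2-KO day 6, Oma1 at 5.96 ± 0.42 and Mief2 at 4.58 ± 0.86 CPM per kilobase stood below Dnm1l at 13.3 ± 0.33 and Yme1l1 at 12.9 ± 0.47. In WT day 0 the lowest were Mief1 at 3.86 ± 0.44, Mief2 at 3.85 ± 1.37 and Oma1 at 3.22 ± 0.39 CPM per kilobase, and Mief1 and Mief2 did not differ beyond their spread. Lengths are the union of annotated exons, so a gene that uses short transcripts is set too low on this scale.

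**Figure D2:**
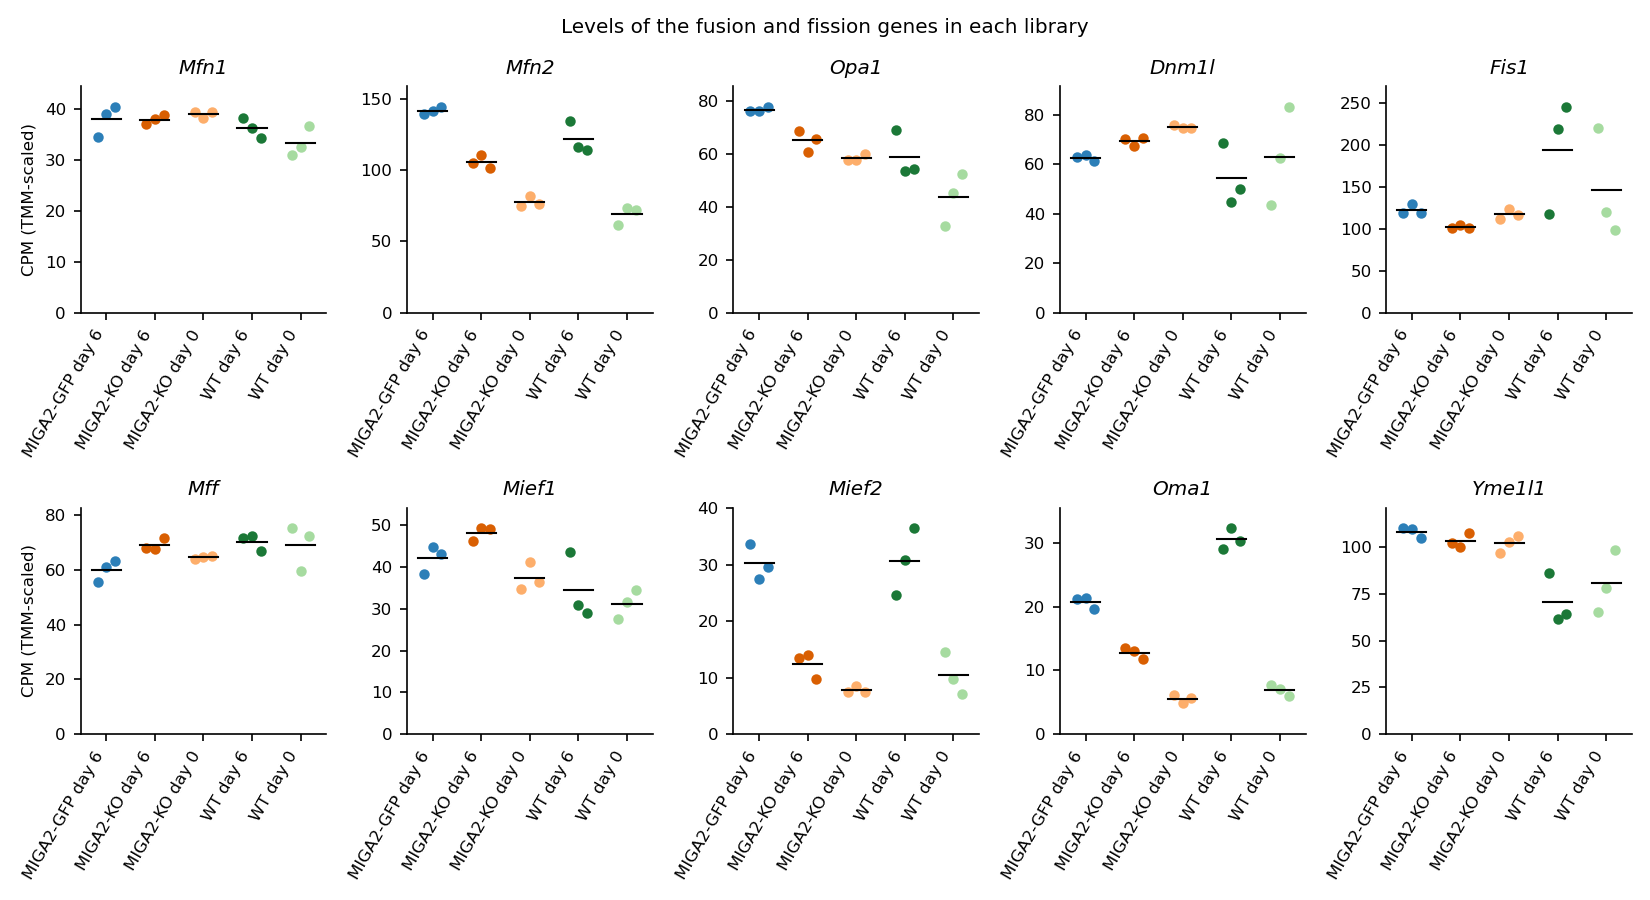
Level of each of the 10 genes in each library (CPM, TMM-scaled, linear axis from 0), with 1 point per replicate and a bar at the mean of the 3 replicates of a group. Oma1 is at 19.7 CPM or more in MIGA2-GFP and WT day 6 and at 13.5 CPM or less in the other groups, while Mfn1 stays between 30.9 and 40.5 CPM in all 15 libraries.

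The members lie on 8 chromosomes, with Mfn2 and Oma1 both on chromosome 4 and Opa1 and Dnm1l both on chromosome 16. On GRCm38, with gene bodies as annotated in GENCODE vM21, the fusion GTPase genes are Mfn1 at chr3:32529465-32579239, Mfn2 at chr4:147873599-147904704 (reverse strand) and Opa1 at chr16:29579334-29654884. The peptidase genes are Oma1 at chr4:103313812-103371868 and Yme1l1 at chr2:23156369-23199260. The fission genes are Dnm1l at chr16:16312230-16358959 (reverse strand), Fis1 at chr5:136953275-136966234, Mff at chr1:82724890-82752394, Mief1 at chr15:80234018-80253371 and Mief2 at chr11:60728398-60732951. Those without a strand given here are on the forward strand.

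Of the 10 members, 3 were higher at day 6 than at day 0 in both lines, namely Oma1, Mief2 and Mfn2, with values given further on. Of all genes, 31.7% were higher in WT and 23.3% in MIGA2-KO, and the share higher in both lines was not computed. The Mief2 call in MIGA2-KO was lost when certain single libraries were left out. The 250 bases before the annotated start of these 3 genes are shown as a description. Beside them are those of Mfn1, the paralogue of Mfn2 that did not pass the test in any comparison as fitted. The sequences are from RefSeq (GRCm38.p6), 5′ to 3′ on the strand of the gene, with matches to the motifs searched in capitals. Oma1 lies at chr4:103313596-103313845 (forward strand), Mief2 at chr11:60728148-60728397 (forward), Mfn2 at chr4:147904699-147904948 (reverse) and Mfn1 at chr3:32529232-32529481 (forward). The starts are those of RefSeq, which for Oma1, Mfn1 and Mfn2 lie inside the GENCODE gene body.
Oma1: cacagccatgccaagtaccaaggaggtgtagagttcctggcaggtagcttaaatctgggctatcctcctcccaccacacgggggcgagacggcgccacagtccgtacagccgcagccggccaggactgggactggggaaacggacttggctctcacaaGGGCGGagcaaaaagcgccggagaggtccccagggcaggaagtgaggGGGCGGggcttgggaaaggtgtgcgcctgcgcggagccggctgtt
Mief2: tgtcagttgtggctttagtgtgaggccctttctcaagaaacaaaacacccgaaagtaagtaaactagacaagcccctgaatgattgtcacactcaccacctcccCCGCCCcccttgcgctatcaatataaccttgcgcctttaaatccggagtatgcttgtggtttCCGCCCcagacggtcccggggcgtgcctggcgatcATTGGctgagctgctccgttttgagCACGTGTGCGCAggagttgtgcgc
Mfn2: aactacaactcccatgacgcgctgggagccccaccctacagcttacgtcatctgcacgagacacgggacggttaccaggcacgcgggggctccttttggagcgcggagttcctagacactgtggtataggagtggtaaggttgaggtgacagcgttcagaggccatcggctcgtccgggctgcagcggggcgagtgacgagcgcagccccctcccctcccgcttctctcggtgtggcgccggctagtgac
Mfn1: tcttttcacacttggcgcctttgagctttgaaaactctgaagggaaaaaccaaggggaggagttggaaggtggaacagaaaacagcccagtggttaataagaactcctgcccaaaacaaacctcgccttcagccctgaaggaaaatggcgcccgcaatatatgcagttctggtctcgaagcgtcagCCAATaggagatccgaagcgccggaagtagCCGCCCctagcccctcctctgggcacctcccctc
The motifs searched on both strands were the GC box GGGCGG, the CCAAT box, the E-box CACGTG, the CREB site TGACGTCA, the NRF1 core TGCGCA, the C/EBP site TTGCNNAA and the nuclear receptor half-site AAGGTCA. The Mief2 window held 5 matches (2 GC boxes, 1 CCAAT box, 1 E-box directly followed by 1 NRF1 core), the Oma1 window held 2 GC boxes, and the Mfn1 window held 1 GC box and 1 CCAAT box. The Mfn2 window held 0 matches. Over all 10 members, a GC box was found in 9 windows against 44.3% of 16590 promoters, a CCAAT box in 7 against 36%, an NRF1 core in 3 against 8.52% and an E-box in 1 against 6.78%. The 16590 promoters include genes that did not pass the filter on low counts, whereas all 10 members passed it. The CREB site (2.06% of promoters), the C/EBP site (9.01%) and the nuclear receptor half-site (3.49%) were found in 0 of the 10 windows. A match is a string of letters and was not tested as a binding site.

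In WT cells 4 of the 10 members were higher at day 6 than at day 0 and 0 were lower, at an adjusted p under 0.05 in edgeR's quasi-likelihood test with Benjamini-Hochberg adjustment over all genes. Of all 12279 genes, 31.7% were higher and 33.1% were lower in that comparison, so that the 4 higher members are near the background share. The median log2 fold change was 0.28 over the members and -0.04 over all genes, and the median absolute log2 fold change was 0.31 over the members and 0.68 over all genes. In MIGA2-KO cells 3 members were higher and 0 lower, against 23.3% and 21.0% of all genes, with medians of 0.13 over the members and 0.02 over all genes. The median absolute log2 fold change there was 0.18 over the members and 0.42 over all genes.

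Oma1, the stress-activated OPA1 peptidase, changed the most among the members. It was at 29.1, 32.4 and 30.3 CPM in WT day 6 and at 7.64, 7.05 and 6.01 CPM in WT day 0. It was at 13.5, 13.1 and 11.8 CPM in MIGA2-KO day 6 and at 6.10, 4.82 and 5.60 CPM in MIGA2-KO day 0. In both lines every day 6 library lay above every day 0 library, and the WT day 6 libraries stood far above those of MIGA2-KO day 6. The log2 fold change over time was 2.15 ± 0.13 in WT (SE, edgeR adjusted p = 1.82e-09), a 4.43-fold difference. In MIGA2-KO it was 1.22 ± 0.14 (edgeR adjusted p = 3.79e-06), a 2.32-fold difference.

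Yme1l1, the other OPA1 peptidase, was not called over time in either line. It was at 85.9, 61.7 and 63.97 CPM in WT day 6 and at 65.2, 78.1 and 98.4 CPM in WT day 0, with overlapping groups. MIGA2-KO libraries held 102, 99.9 and 107 CPM of it at day 6 and 97.02, 103 and 106 CPM at day 0, again overlapping. Its log2 fold change was -0.19 (95% interval -0.50 to 0.12) in WT and 0.02 (95% interval -0.29 to 0.32) in MIGA2-KO. With the GC and length correction the WT value turned to 0.31 (edgeR adjusted p = 0.00666). Without the 3 libraries that stood apart it was -0.49 (edgeR adjusted p = 8.97e-05), so the direction for Yme1l1 in WT hung on the processing.

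Mfn2, the mitofusin with an added role at contacts with the endoplasmic reticulum, was at 134, 116 and 114 CPM in WT day 6 and at 61.6, 73.3 and 71.7 CPM in WT day 0. It was at 105, 110.2 and 101 CPM in MIGA2-KO day 6 and at 74.7, 81.8 and 76.1 CPM in MIGA2-KO day 0. The day 6 and day 0 libraries did not overlap in either line. The log2 fold change was 0.82 ± 0.10 in WT (edgeR adjusted p = 2.82e-06) and 0.44 ± 0.10 in MIGA2-KO (edgeR adjusted p = 0.00163). Mfn1, the other mitofusin, was at 38.2, 36.2 and 34.3 CPM in WT day 6 and at 30.9, 32.5 and 36.6 CPM in WT day 0. The MIGA2-KO libraries had 36.95, 37.98 and 38.8 CPM at day 6 and 39.4, 38.3 and 39.4 CPM at day 0. Its groups overlapped in both lines. The log2 fold change of Mfn1 was 0.12 (95% interval -0.09 to 0.33) in WT and -0.04 (95% interval -0.25 to 0.17) in MIGA2-KO. With the GC and length correction the WT value was 0.28 (edgeR adjusted p = 0.00879).

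Opa1, the inner-membrane fusion GTPase, was at 69.3, 53.6 and 54.3 CPM in WT day 6 and at 33, 45.3 and 52.4 CPM in WT day 0. The groups did not overlap, but the highest day 0 library lay just below the lowest day 6 library. The log2 fold change was 0.44 ± 0.14 (edgeR adjusted p = 0.0154). It was 0.31 without WT day 6 replicate 1 (edgeR adjusted p = 0.0764) and 0.14 without the 3 libraries that stood apart (edgeR adjusted p = 0.108), and 0.72 with the GC and length correction (edgeR adjusted p = 1.86e-07). A fit of only the WT groups did not call Opa1 either. In MIGA2-KO, Opa1 was at 68.8, 60.9 and 65.8 CPM at day 6 and 57.7, 57.6 and 60.2 CPM at day 0, without overlap, and its log2 fold change of 0.16 (95% interval -0.15 to 0.46) was not called. Counts per gene do not show which Opa1 splice forms are made, nor the cleavage of the protein.

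Among the fission genes, Mief2 was the member called over time in both lines. This receptor gene was at 24.7, 30.9 and 36.5 CPM in WT day 6 and at 14.5, 9.72 and 7.17 CPM in WT day 0. It was at 13.6, 14.01 and 9.75 CPM in MIGA2-KO day 6 and at 7.46, 8.49 and 7.54 CPM in MIGA2-KO day 0. All day 6 libraries lay above the day 0 libraries of their line. Mief2 had a log2 fold change of 1.56 ± 0.22 in WT (edgeR adjusted p = 2.26e-05). In MIGA2-KO it was 0.67 ± 0.24 (edgeR adjusted p = 0.033), which became 0.60 when MIGA2-KO day 6 replicate 1, the library whose Miga2 level goes against its label, was left out (edgeR adjusted p = 0.0943). Leaving out replicate 2 of that group (0.57) or any 1 of the MIGA2-KO day 0 libraries (0.63 to 0.73) also ended the call, whereas it stood with the GC and length correction (0.58, edgeR adjusted p = 0.00355).

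The other fission genes were not called over time in either line as fitted over all groups. Mief1, which encodes the related receptor, was at 43.6, 30.9 and 29.1 CPM in WT day 6 and at 27.5, 31.7 and 34.6 CPM in WT day 0, with overlap. MIGA2-KO cells were at 46.2, 49.4 and 49.1 CPM at day 6 and 34.8, 41.3 and 36.4 CPM at day 0, without overlap, and its log2 fold change of 0.36 ± 0.14 missed the threshold (edgeR adjusted p = 0.0544). This Mief1 value was called with the GC and length correction (0.46, edgeR adjusted p = 0.00178), with DESeq2 (0.36, DESeq2 adjusted p = 0.0413), and without the 3 libraries that stood apart (0.39, edgeR adjusted p = 0.00104), among others. In WT the correction also called Mief1, at 0.32 (edgeR adjusted p = 0.0153). The annotation places 213 exonic bases of Mief1 in AC140267.1, a gene on the same strand with at most 1.65 CPM in any library, so how reads there were assigned is uncertain. Dnm1l, the fission GTPase, was at 68.5, 44.5 and 50.1 CPM in WT day 6 and at 43.5, 62.4 and 83.3 CPM in WT day 0. MIGA2-KO cells had 70.1, 67.4 and 70.6 CPM at day 6 and 75.8, 74.5 and 74.7 CPM at day 0. Its WT libraries spread more widely than the difference between the days, its MIGA2-KO groups did not overlap, and its log2 fold changes were -0.21 (95% interval -0.62 to 0.19) in WT and -0.11 (95% interval -0.51 to 0.29) in MIGA2-KO. Without the 3 libraries that stood apart the WT value was -0.62 (edgeR adjusted p = 3.01e-05), and with the GC and length correction it was 0.08 (edgeR adjusted p = 0.484).

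Fis1, the tail-anchored outer-membrane protein, spread the most among the WT replicates. It was at 118, 219 and 246 CPM in WT day 6 and at 221, 119.9 and 99.2 CPM in WT day 0. Its levels in MIGA2-KO were 101, 105 and 102 CPM at day 6 and 112, 123 and 117 CPM at day 0. The WT groups overlapped across almost their whole range, whereas both MIGA2-KO groups were narrow and did not overlap. Its log2 fold change was 0.41 (95% interval -0.15 to 0.97) in WT and -0.19 (95% interval -0.76 to 0.37) in MIGA2-KO. The WT value was 1.09 without the 3 libraries that stood apart (edgeR adjusted p = 1.02e-09) and -0.19 with the GC and length correction (edgeR adjusted p = 0.28). In MIGA2-KO the correction gave -0.41 for Fis1 (edgeR adjusted p = 0.0326), and a fit of only the MIGA2-KO groups gave -0.19 (edgeR adjusted p = 0.0279). Mff, a DRP1 receptor also found on peroxisomes, was at 71.5, 72.3 and 66.97 CPM in WT day 6 and at 75.2, 59.7 and 72.4 CPM in WT day 0, with a log2 fold change of 0.03 (95% interval -0.18 to 0.23). Its MIGA2-KO levels were 67.9, 67.6 and 71.5 CPM at day 6 and 63.9, 64.8 and 64.9 CPM at day 0. These MIGA2-KO groups did not overlap, and the log2 fold change was 0.10 (95% interval -0.11 to 0.31).

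The change over time differed between the lines beyond the threshold for 1 member, Oma1, where the MIGA2-KO change minus the WT change was -0.93 ± 0.18 on the log2 scale (interaction contrast, edgeR adjusted p = 0.00182). In this contrast 13.7% of all genes were higher and 13.6% lower, against 0 and 1 of the 10 members. Mief2 had a difference of -0.89 ± 0.32 (edgeR adjusted p = 0.0543). Mfn2 had a difference of -0.38 ± 0.14 (edgeR adjusted p = 0.051). Both missed the threshold, and both passed it without the 3 libraries that stood apart (Mief2 -1.38, Mfn2 -0.22). With the GC and length correction Mief2 passed it and Mfn2 did not, while Mfn1 and Opa1 did. The median over the members was -0.22, against 0.02 over all genes, and the median absolute value was 0.25 against 0.47. For Oma1 the difference was -0.77 with the GC and length correction (edgeR adjusted p = 0.0018) and -1.08 without those 3 libraries (edgeR adjusted p = 7.04e-05).

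**Figure D3:**
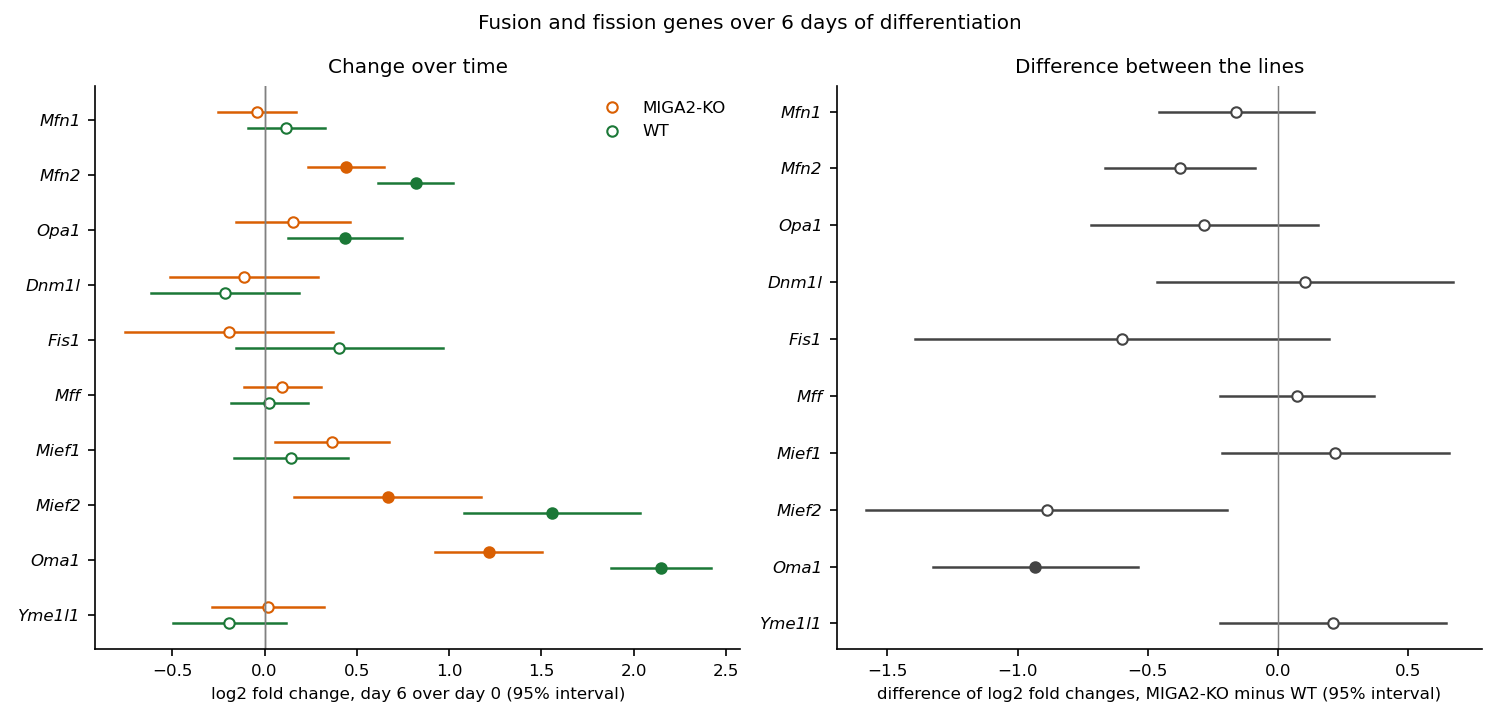
Log2 fold change of each gene at day 6 over day 0 in MIGA2-KO and WT (left) and the difference between these changes, MIGA2-KO minus WT (right), from edgeR with lines for the 95% interval and filled points for an adjusted p under 0.05. Oma1, Mief2 and Mfn2 are filled in both lines with smaller values in MIGA2-KO (1.22, 0.67 and 0.44) than in WT (2.15, 1.56 and 0.82), and Oma1 alone is filled on the right.

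At day 6, 2 members were higher and 3 lower in MIGA2-KO than in WT, where 29.2% of all genes were higher and 31.5% were lower. The median log2 fold change was 0.02 over the members and -0.01 over all genes, and the median absolute value was 0.42 over the members and 0.62 over all genes. Oma1 and Mief2 were lower by more than a factor of 2, and these were the calls that stood under all alternatives run. Oma1 had a log2 fold change of -1.26 ± 0.13 (edgeR adjusted p = 1.66e-06), which was -0.81 with the GC and length correction (edgeR adjusted p = 1.18e-05). Mief2 had -1.30 ± 0.23 (edgeR adjusted p = 0.000224), which was -0.84 with that correction (edgeR adjusted p = 7.18e-05). In both genes every MIGA2-KO day 6 library lay below every WT day 6 library. In the same comparison 8 of 8 fat-cell markers were lower (median -2.12), and 4 of 7 preadipocyte markers were higher and 1 lower (median 1.13). The part of this shift in the differences of Oma1 and Mief2 was not tested.

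Mief1, in contrast to Mief2, was higher in MIGA2-KO day 6 (46.2, 49.4 and 49.1 CPM) than in WT day 6 (43.6, 30.9 and 29.1 CPM), with a log2 fold change of 0.48 ± 0.15 (edgeR adjusted p = 0.0106). It was 0.33 with the GC and length correction (edgeR adjusted p = 0.0142), and without WT day 6 replicate 2 or 3 the call was lost at 0.41 and 0.37 (edgeR adjusted p = 0.0508 and 0.0545). Fis1 was lower in MIGA2-KO day 6 at -0.92 ± 0.27 (edgeR adjusted p = 0.00775), and with the GC and length correction it was -0.12 (edgeR adjusted p = 0.513). Yme1l1 was higher in MIGA2-KO day 6 at 0.55 ± 0.14 (edgeR adjusted p = 0.00445). That direction turned with the correction, to -0.36 (edgeR adjusted p = 0.00347). Without the 3 libraries that stood apart Fis1 was at -1.17 and Yme1l1 at 0.72, so these calls depended on whether the correction was applied.

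The remaining 5 members were not called between MIGA2-KO and WT at day 6. Mfn2 was at 105, 110.2 and 101 CPM in MIGA2-KO day 6 and 134, 116 and 114 CPM in WT day 6, without overlap, and its log2 fold change was -0.21 (95% interval -0.41 to -0.002, edgeR adjusted p = 0.0747). Opa1 had 0.14 (95% interval -0.17 to 0.45), and with the GC and length correction it turned to -0.24 (edgeR adjusted p = 0.00704). Without the 3 libraries that stood apart Opa1 was called in the other direction, at 0.23 (edgeR adjusted p = 0.0173), and limma voom gave 0.22 (limma adjusted p = 0.0304). Dnm1l had 0.35 (95% interval -0.05 to 0.76), which was 0.54 without those libraries (edgeR adjusted p = 0.000204), 0.54 with limma voom (limma adjusted p = 9.75e-05) and -0.14 with the correction (edgeR adjusted p = 0.209). Mfn1 had 0.07 (95% interval -0.15 to 0.28) and Mff had -0.03 (95% interval -0.24 to 0.18). With the correction Mff was at -0.62 (edgeR adjusted p = 0.00658); it is the member with the longest exonic sequence (9757 bases).

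Before differentiation, 1 member was higher and 0 lower in MIGA2-KO than in WT, where 16.1% of all genes were higher and 17.7% lower. Opa1 was at 57.7, 57.6 and 60.2 CPM in MIGA2-KO day 0 and at 33, 45.3 and 52.4 CPM in WT day 0. The groups did not overlap, and the WT libraries were spread out while the MIGA2-KO libraries were close together. Its log2 fold change was 0.42 ± 0.14 (edgeR adjusted p = 0.0349). It was 0.26 without the 3 libraries that stood apart (edgeR adjusted p = 0.0056) and 0.26 without WT day 0 replicate 1 alone (edgeR adjusted p = 0.106). The call was also lost with the replicate block (0.43, edgeR adjusted p = 0.0563), with only these groups in the fit (0.43, edgeR adjusted p = 0.1), and without WT day 0 replicate 2 or any 1 of the MIGA2-KO day 0 libraries (0.40 to 0.45). The median log2 fold change at day 0 was 0.20 over the members and -0.03 over all genes, and the median absolute value was 0.29 over the members and 0.35 over all genes. Mfn1, Mfn2 and Mief1 were not called, at 0.23, 0.17 and 0.26. Their libraries did not overlap between the lines, which is a description, since the share of all genes without overlap was not computed. Oma1 had -0.33 (95% interval -0.61 to -0.04, edgeR adjusted p = 0.0749) and Mief2 had -0.41 (95% interval -0.91 to 0.08), neither called, and the day 6 differences given above were larger for both genes. Yme1l1 had 0.34, Dnm1l 0.25, Fis1 -0.32 and Mff -0.10, none of them called.

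In MIGA2-GFP day 6, 1 member was higher and 1 lower than in WT day 6, where 16.5% of all genes were higher and 18.9% lower. Oma1 was at 21.3, 21.3 and 19.7 CPM in MIGA2-GFP day 6 and 29.1, 32.4 and 30.3 CPM in WT day 6, without overlap, with a log2 fold change of -0.56 ± 0.12 (edgeR adjusted p = 0.00338). Yme1l1 was at 110.1, 109 and 105 CPM in MIGA2-GFP day 6 and 85.9, 61.7 and 63.97 CPM in WT day 6, with 0.62 ± 0.14 (edgeR adjusted p = 0.00504). Both calls were lost with the GC and length correction, at -0.26 for Oma1 (edgeR adjusted p = 0.0633) and 0.17 for Yme1l1 (edgeR adjusted p = 0.151). The correction called Opa1 instead, at 0.21 (edgeR adjusted p = 0.0252), and Mff, at -0.53 (edgeR adjusted p = 0.0267). Mief2 was at 33.7, 27.4 and 29.6 CPM in MIGA2-GFP day 6, inside the range of WT day 6, with a log2 fold change of -0.02 (95% interval -0.49 to 0.45). Mfn2 was at 139, 141 and 144 CPM in MIGA2-GFP day 6, above every WT day 6 library, with 0.22 (95% interval 0.02 to 0.42, edgeR adjusted p = 0.0848). Opa1 was at 76.2, 76.3 and 77.97 CPM in MIGA2-GFP day 6, also above every WT day 6 library, with 0.38 (edgeR adjusted p = 0.0543). Fis1 had -0.67 (95% interval -1.23 to -0.10, edgeR adjusted p = 0.0626) and Mff -0.23 (95% interval -0.44 to -0.02, edgeR adjusted p = 0.0808). Dnm1l, Mief1 and Mfn1 had 0.20, 0.29 and 0.07 and were not called. The median was 0.14 over the members and 0.00 over all genes, and the median absolute value was 0.26 over the members and 0.38 over all genes. Without the 3 libraries that stood apart, 8 members were called, among them Opa1 at 0.51, Mfn2 at 0.30 and Fis1 at -0.92. Of all 12279 genes, 7611 were called in that setting, against 4338 as fitted. Fat-cell markers also differed here, with 4 of 8 lower in MIGA2-GFP than in WT (median -0.72).

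MIGA2-GFP and MIGA2-KO cells at day 6 were compared with each other, a contrast whose means use no WT library, although the spread was estimated over all groups. Here 3 members were higher in MIGA2-GFP and 0 were lower, against 25.4% and 22.5% of all genes. Mief2 was at 33.7, 27.4 and 29.6 CPM in MIGA2-GFP day 6 and 13.6, 14.01 and 9.75 CPM in MIGA2-KO day 6, a log2 fold change of 1.28 ± 0.23 (edgeR adjusted p = 0.000379). Oma1 was at 21.3, 21.3 and 19.7 CPM in MIGA2-GFP day 6 and 13.5, 13.1 and 11.8 CPM in MIGA2-KO day 6, with 0.70 ± 0.13 (edgeR adjusted p = 0.000428). Mfn2 was at 139, 141 and 144 CPM in MIGA2-GFP day 6 and 105, 110.2 and 101 CPM in MIGA2-KO day 6, with 0.43 ± 0.10 (edgeR adjusted p = 0.00207). The groups did not overlap for any of the 3 genes, nor for Opa1, Dnm1l, Fis1, Mff and Mief1, which were not called. The share of all genes without overlap was not computed. Mief2, Oma1 and Mfn2 were called under all 24 alternatives run, some of which left out only a library of a group not compared here. Fat-cell markers were higher for 8 of 8 in this comparison (median 1.60), and their part in these differences was not tested. Mfn1 had 0.00 (95% interval -0.21 to 0.22), Opa1 0.24 (95% interval -0.07 to 0.55) and Yme1l1 0.07 (95% interval -0.24 to 0.37). The fission genes Dnm1l, Mff and Mief1 were at -0.15, -0.21 and -0.19 and Fis1 at 0.26, none of them called. The median was 0.15 over the members and 0.02 over all genes, and the median absolute value was 0.22 over the members and 0.46 over all genes. The comparisons at day 6 share libraries pairwise and are not independent.

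**Figure D4:**
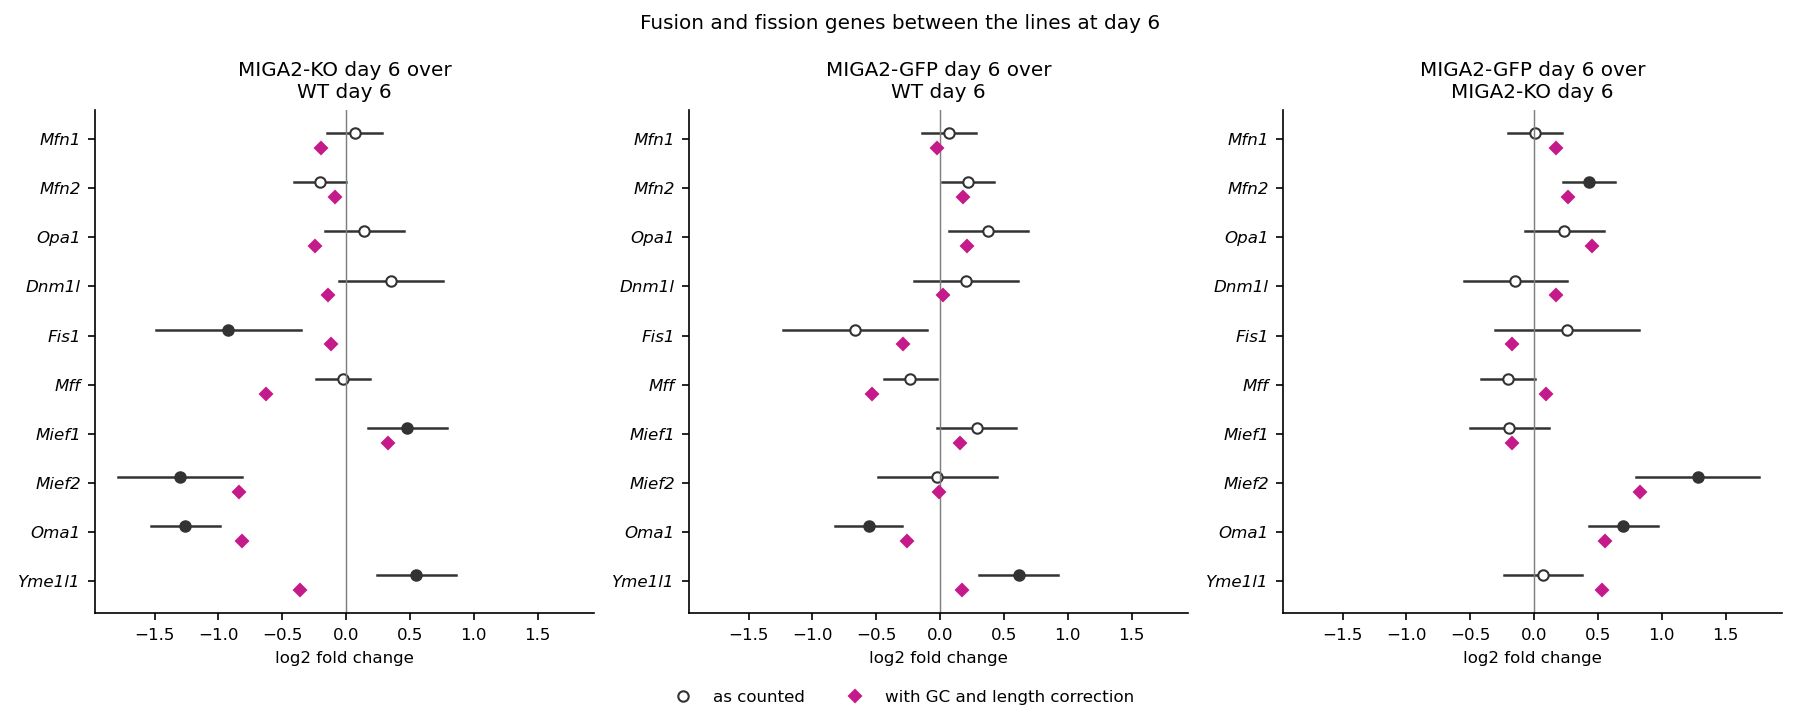
Log2 fold change of each gene between the groups of day 6 (circles with lines for the 95% interval, filled for an edgeR adjusted p under 0.05) and the same with the GC and length correction (diamonds). In MIGA2-KO over WT the diamonds of Oma1 and Mief2 stay below 0 (-0.81 and -0.84), while Fis1 moves to -0.12 and Yme1l1 crosses to -0.36.

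The balance between related genes was followed as a ratio of levels per kilobase within each library, as a description. Mfn2 over Mfn1 was 4.40 ± 0.29 in MIGA2-GFP day 6, 3.27 ± 0.18 in MIGA2-KO day 6 and 3.95 ± 0.18 in WT day 6, against 2.34 ± 0.15 in MIGA2-KO day 0 and 2.44 ± 0.19 in WT day 0. All day 6 libraries lay above all day 0 libraries, and those of MIGA2-KO day 6 were the lowest of day 6. Oma1 over Yme1l1 was 0.717 ± 0.013 in MIGA2-GFP day 6, 0.464 ± 0.047 in MIGA2-KO day 6 and 1.67 ± 0.36 in WT day 6, against 0.203 ± 0.030 in MIGA2-KO day 0 and 0.334 ± 0.105 in WT day 0. WT day 6 was thus the one group in which Oma1 exceeded Yme1l1 per kilobase. Mief2 over Mief1 was 2.16 ± 0.41 in MIGA2-GFP day 6, 0.772 ± 0.156 in MIGA2-KO day 6 and 2.81 ± 1.04 in WT day 6, against 0.624 ± 0.015 in MIGA2-KO day 0 and 1.03 ± 0.49 in WT day 0. Mief2 exceeded Mief1 in every MIGA2-GFP and WT day 6 library and in no MIGA2-KO library. These ratios carry the length trend of the WT libraries wherever the 2 genes differ in length.

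**Figure D5:**
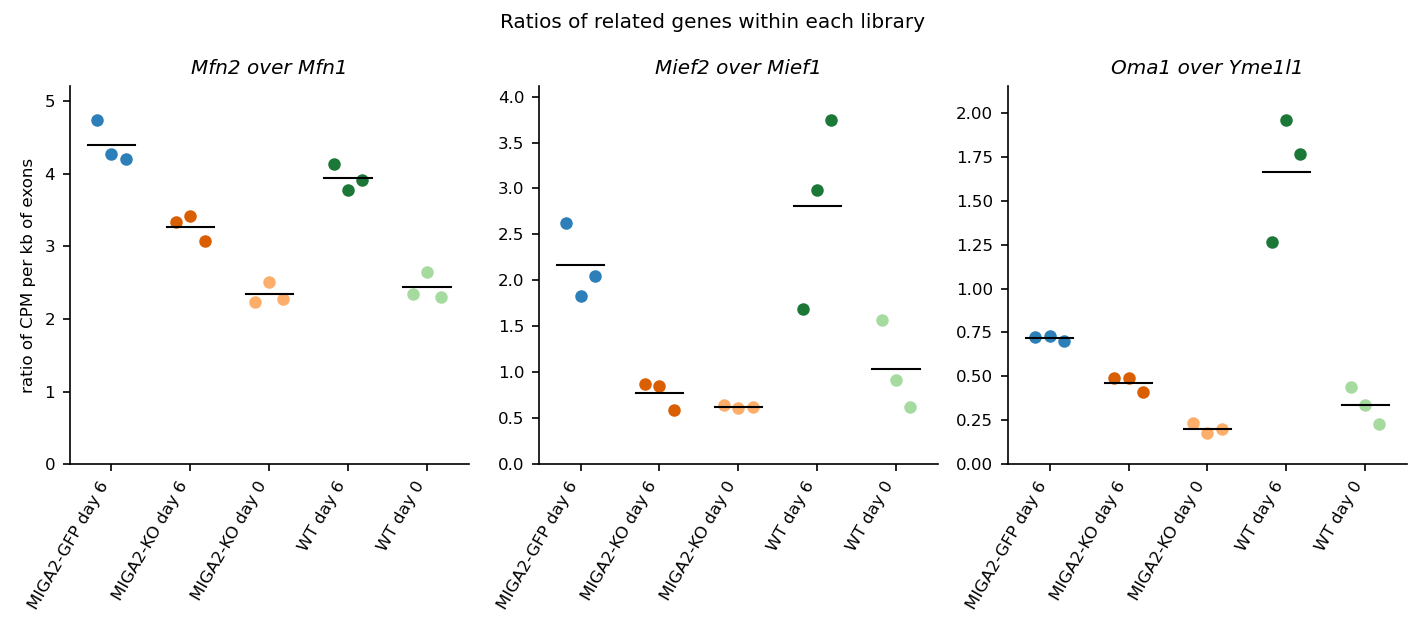
Ratio of Mfn2 to Mfn1, Mief2 to Mief1 and Oma1 to Yme1l1 in each library, from CPM per kilobase of exons on a linear axis from 0, with a bar at the mean of 3 replicates. Mief2 to Mief1 lies between 0.593 and 0.877 in MIGA2-KO day 6 and between 1.69 and 3.74 in WT day 6.

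Across the 15 libraries the members fell into patterns, given as Pearson correlations of log2 CPM without a test, since the libraries share groups and the WT trend. Mief2 and Oma1 had r = 0.930, Mfn2 and Oma1 0.861 and Mfn2 and Mief2 0.812. Dnm1l and Yme1l1 had 0.811, and each ran against Fis1, at -0.902 and -0.870. The genes most like Oma1 were Prlr, the prolactin receptor, and Bcat2, the mitochondrial branched-chain aminotransferase, both at 0.994. Those most like Mfn2 were Acsf2 (0.990) and Gm42987 (0.985), and those most like Mief2 were Dgcr6 (0.988) and Cox18 (0.987), which encodes a factor for cytochrome oxidase assembly. The ribosomal protein genes Rps18 (0.973) and Rpl10a (0.965) were most like Fis1. Opa1 was most like Rb1 (0.979) and Wapl (0.977), Yme1l1 like Rc3h2 (0.978) and Matr3 (0.977), Dnm1l like Asph (0.960) and Dhx9 (0.953), and Mief1 like Eif4a2 (0.955) and Clint1 (0.942). Mfn1 was most like Naa15 (0.871) and Tiparp (0.869), and Mff like Eif2s2 (0.866).

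Genes that act beside the members were taken from 6 lists, each counted against the shares of all genes given above for the same comparison. Those for fusion and OPA1 processing moved mostly in one direction. Of 10 listed, 9 were tested, and 8 were lower and 0 higher in MIGA2-KO day 6 than in WT day 6, with a median log2 fold change of -1.11 against -0.01 over all genes. Parl, the rhomboid peptidase of the inner membrane, had -1.18 ± 0.14 (edgeR adjusted p = 8.1e-06). Stoml2, an inner-membrane scaffold, had -1.17 ± 0.14 (edgeR adjusted p = 7.92e-06), and Phb2, a prohibitin, had -1.45 ± 0.17 (edgeR adjusted p = 8.55e-06). Over time 8 of the 9 were higher in WT and 5 in MIGA2-KO, and 0 were lower in either, with medians of 1.03 in WT and 0.36 in MIGA2-KO. In MIGA2-GFP day 6, 8 of the 9 were higher than in MIGA2-KO day 6, led by Afg3l2, a subunit of the matrix-facing AAA peptidase, at 1.47 ± 0.15 (edgeR adjusted p = 3.87e-06). Against WT day 6, MIGA2-GFP had 1 higher and 4 lower, and MIGA2-KO at day 0 had 0 higher and 2 lower than WT. With the GC and length correction, 9 of the 9 were lower in MIGA2-KO than in WT at day 6. The fat-cell markers moved in the same direction in the comparisons at day 6 and over time, and their part in the list was not tested.

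The 10 genes listed for cristae organisation, whose products work beside OPA1, were all tested. All 10 were lower in MIGA2-KO day 6 than in WT day 6 (median -1.09), and 9 with the GC and length correction. Immt, the core subunit of the cristae junction complex, had -1.22 ± 0.10 (edgeR adjusted p = 2.88e-07). All 10 were higher at day 6 than at day 0 in WT (median 1.31), 5 were in MIGA2-KO (median 0.51), and 8 were higher in MIGA2-GFP than in MIGA2-KO (median 0.69). In MIGA2-GFP day 6, 0 were higher and 7 lower than in WT day 6, led by Micos10 at -1.27 ± 0.22 (edgeR adjusted p = 0.000683). At day 0, 0 were higher and 2 lower in MIGA2-KO than in WT. In the interaction contrast the change over time was lower in MIGA2-KO than in WT for 7 of these 10 genes, and for 6 of the 9 fusion accessory genes. Without the 3 libraries that stood apart, 8 were higher over time in MIGA2-KO and 10 were lower in MIGA2-GFP than in WT. Of the 8 fat-cell markers, 8 were lower in MIGA2-KO than in WT at day 6 and 8 were higher in MIGA2-GFP than in MIGA2-KO, and their part in this list was not tested.

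Accessory genes of fission had no common direction. Of 11 listed, 10 were tested, and 5 were higher and 3 lower in MIGA2-KO day 6 than in WT day 6. Dnm1, a dynamin best known from neurons, was higher at 1.28 ± 0.15 (edgeR adjusted p = 5.37e-06), and Mtfp1, an inner-membrane fission protein, was lower at -1.69 ± 0.25 (edgeR adjusted p = 6.01e-05). With the GC and length correction the counts were 3 higher and 4 lower. Over time 4 were higher and 4 lower in WT, and 2 higher and 1 lower in MIGA2-KO. MIGA2-GFP day 6 had 0 higher and 2 lower than WT day 6, and 2 higher and 4 lower than MIGA2-KO day 6, and MIGA2-KO at day 0 had 1 higher and 2 lower than WT.

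The ubiquitin, SUMO and mitophagy regulators (11 listed and tested) included 2 higher and 4 lower in MIGA2-KO day 6 than in WT day 6. Bnip3, a mitophagy receptor, was lower at -1.92 ± 0.19 (edgeR adjusted p = 1.35e-06), and March5, an outer-membrane ubiquitin ligase that acts on fission and fusion proteins, was lower at -0.68 ± 0.10 (edgeR adjusted p = 4.75e-05). Over time 8 were higher and 2 lower in WT, and 3 higher and 1 lower in MIGA2-KO, with Bnip3 at 3.69 ± 0.20 in WT (edgeR adjusted p = 7.82e-10) and 2.49 ± 0.20 in MIGA2-KO (edgeR adjusted p = 1.08e-07). MIGA2-GFP day 6 had 5 higher and 1 lower than MIGA2-KO day 6, and 1 higher and 0 lower than WT day 6, where the correction gave 5 higher and 0 lower. MIGA2-KO at day 0 had 2 higher and 1 lower than WT, and 5 higher and 1 lower with the correction. For MIGA2-KO against WT at day 6 the correction gave 4 higher and 4 lower.

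Of 8 mitochondrial transport genes, all tested, 4 were higher and 1 lower in MIGA2-KO day 6 than in WT day 6. Rhot2, an outer-membrane GTPase that links mitochondria to motors, was lower at -0.83 ± 0.14 (edgeR adjusted p = 0.000154), and Mapk8ip1, a kinesin scaffold, was higher at 1.95 ± 0.23 (edgeR adjusted p = 9.5e-06). With the GC and length correction the counts were 4 higher and 4 lower there, 4 higher and 2 lower in MIGA2-GFP than in WT, and 5 higher and 1 lower in MIGA2-GFP than in MIGA2-KO. Over time 3 were higher and 3 lower in WT, and 1 higher and 1 lower in MIGA2-KO. MIGA2-GFP day 6 had 5 higher and 0 lower than WT day 6, and 2 higher and 1 lower than MIGA2-KO day 6, and MIGA2-KO at day 0 had 2 higher and 1 lower than WT.

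Among 17 genes of mitochondrial content and biogenesis, all tested, 11 were higher and 3 lower at day 6 in WT, and 11 higher and 1 lower in MIGA2-KO. Hspd1, a mitochondrial chaperone, was higher by 1.78 ± 0.10 in WT (edgeR adjusted p = 1.74e-09) and by 1.12 ± 0.10 in MIGA2-KO (edgeR adjusted p = 5.54e-07). Between MIGA2-KO and WT at day 6, 4 were higher and 8 lower, with Ppargc1a, a coactivator of mitochondrial biogenesis, higher at 2.78 ± 0.36 (edgeR adjusted p = 1.59e-05) and Esrra, a nuclear receptor it works with, lower at -1.19 ± 0.22 (edgeR adjusted p = 0.000302). MIGA2-GFP day 6 had 6 higher and 3 lower than MIGA2-KO day 6, and 3 higher and 1 lower than WT day 6, and MIGA2-KO at day 0 had 2 higher and 1 lower than WT. Leaving out the 3 libraries that stood apart gave 6 higher and 4 lower at day 0.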

How the data were processed

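RNA from 3T3-L1 cells was sequenced after a TruSeq stranded preparation, per the labels. The submitters' processing notes name bcl2fastq 2.19, Trimmomatic, STAR 2.5.4b, featureCounts, edgeR and the build GRCm38.p5. The authors deposited raw counts per gene for each library. The sources used here state neither annotation release nor strand setting, so reads of overlapping genes may be split in an unknown way. Of 25700 identifiers, 25587 were matched to symbols in GENCODE vM21.

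Counts were filtered with filterByExpr (minimum count 10, minimum total 15), TMM-scaled and fitted over all 5 groups with edgeR 4.0.16 (R 4.3.3), and 7 contrasts were tested by the quasi-likelihood test with Benjamini-Hochberg adjustment over 12279 genes and a threshold of 0.05. The common biological coefficient of variation was 15.96%. Each ± on a log2 value is the standard error implied by that test. Correlations used log2 CPM with a prior count of 2. Alternatives were DESeq2 1.42.0, its size factors, limma 3.58.1 voom, no filter, fits of only the groups compared, a GC content and length correction, a replicate block, and leaving out libraries. The counts of lists under alternatives were added after the values were seen.

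All 10 members and Miga2 were named, with up to 3 genes of smallest adjusted p per list and comparison and the 2 genes most correlated with each member, of which 1 is not reported here. The members and lists were chosen with earlier results of these data known. Promoters are from RefSeq (GRCm38.p6). The code was tested on simulated data. No pair of replicates agreed within sampling noise (chi-square per degree of freedom 1.738 to 130.7). The labels do not say that same-numbered libraries share a culture or day, so the numbers were not taken to pair samples. Deviations of same-numbered libraries from their group means had correlations of -0.723 to 0.125 over 30 pairs. In WT these deviations carry the GC and length trend, so the correlations cannot decide on pairing.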

Additional observations from a re-analysis of the deposited data

Results flagged for a closer look

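Oma1 was flagged because its change over time differed between the lines by a test of the difference itself. The MIGA2-KO change minus the WT change was -0.933 on the log2 scale (interaction contrast, edgeR adjusted p = 0.00182). All 3 MIGA2-KO day 6 libraries (11.8 to 13.5 CPM) lay below all 3 WT day 6 libraries (29.1 to 32.4 CPM). No group had the 4 samples needed for a search for single samples far from the rest.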

How the results depend on the processing

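The number of members called moved with the processing. Settings not named for a contrast moved the number less or not at all. Over time in WT it was 4, and 7 with limma voom, with the GC content and length correction, and with that correction plus a replicate block. It was 3 with only the WT groups in the fit and 6 without the 3 libraries that stood apart, and Opa1 was not called in either setting. Leaving out 1 library gave 4 to 7, with 7 without WT day 0 replicate 1. Over time in MIGA2-KO it was 3, and 5 with limma voom, 5 with only these groups in the fit, 6 with the correction and 5 with the correction plus replicate block. Leaving out 1 library gave 2 to 4. Between MIGA2-KO and WT at day 0 it was 1, and 3 with DESeq2, 6 with limma voom, 2 without the 3 libraries that stood apart, and 0 with only these groups in the fit or with the replicate block (Opa1 0.43, edgeR adjusted p = 0.0563). Leaving out 1 library gave 0 to 6, with 6 without WT day 0 replicate 3, 2 without WT day 6 replicate 1, and 0 without WT day 0 replicate 1 or 2 or any MIGA2-KO day 0 library. Between MIGA2-KO and WT at day 6 it was 5, and 4 to 7 under all settings run. Between MIGA2-GFP and WT at day 6 it was 2, and 4 with DESeq2, 8 with limma voom and 8 without the 3 libraries. Leaving out 1 library gave 2 to 6, with 6 without WT day 0 or day 6 replicate 1 and 4 without WT day 0 replicate 3. Between MIGA2-GFP and MIGA2-KO at day 6 it was 3, and 7 with limma voom, 8 with only these groups in the fit, 5 with the correction with or without the replicate block and 7 without the 3 libraries. Leaving out 1 library gave 3 each time. In the interaction contrast it was 1, and 2 with DESeq2 size factors, 3 with DESeq2, 7 with limma voom, 4 with the correction, 3 with the correction plus replicate block and 7 without the 3 libraries. Leaving out 1 library gave 1 to 3, with 3 without WT day 0 or day 6 replicate 1 and 2 without replicate 2 of WT day 0 or replicate 3 of WT day 6. The number called among all 12279 genes moved as well, here as fitted, with limma voom and without the 3 libraries. Over time it was 7956, 9353 and 9860 in WT and 5442, 8212 and 7260 in MIGA2-KO. Between MIGA2-KO and WT it was 4159, 6742 and 6113 at day 0 and 7452, 8910 and 9073 at day 6. For MIGA2-GFP it was 4338, 7174 and 7611 against WT and 5886, 8950 and 8208 against MIGA2-KO. In the interaction contrast it was 3346, 7611 and 7644. With the correction, 8861 genes were called over time in WT, 6449 over time in MIGA2-KO and 4549 in the interaction contrast. A fit of only the groups compared called 6981 genes over time in MIGA2-KO and 7575 between MIGA2-GFP and MIGA2-KO. Between MIGA2-KO and WT at day 0 such a fit called 3061 genes, and the replicate block 3505. At day 0, 4686 genes were called without WT day 0 replicate 3 and 3403 without WT day 0 replicate 1. Without WT day 0 replicate 1, 8767 genes were called over time in WT, 5405 between MIGA2-GFP and WT and 5201 in the interaction contrast. The correction called 6686 genes between MIGA2-GFP and MIGA2-KO. Among member values called with or without the alternative, direction turned for 3, all with the correction. Yme1l1 over time in WT became 0.311 (0.312 with the replicate block as well). Between MIGA2-KO and WT at day 6, Opa1 became -0.244 and Yme1l1 became -0.358, with the same values under the replicate block. The cause of these changes was not tested. The replicate block alone changed no other call. Of 1680 member results under alternatives, 1474 kept sign and side of the threshold, 50 were uncalled both times with the opposite sign (26 of them with the correction, alone or with the replicate block), 127 were newly called, 23 lost the call and 6 reversed. These results include fits that left out a library of a group not in the contrast. Such fits can move a result only through the scaling and the shared spread, so their agreement says little about stability. The lowest count of a member was 63, for Oma1 in MIGA2-KO day 0 replicate 2, and the part of depth in the spread was not tested.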
